A study of Homo sapiens with 30 samples.

Results

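Okbyeongpung-san, a herbal formula of Korean medicine, was compared at 500 µg/mL with 20 µg/mL in A549, a widely used lung carcinoma cell line of human origin. The comparison used 4 of the 30 libraries of the series, chosen by their labels: replicates 2 and 3 at 500 µg/mL and replicates 2 and 3 at 20 µg/mL, all the libraries of these doses analysed here. Treated groups received an ethanol extract for 24 h, and the vehicle group received none. The other groups used below were Okbyeongpung-san at 100 µg/mL with 2 libraries, and vehicle, 0.1% DMSO, with 3. Soshiho-tang and Yijin-tang were used at 500, 100 and 20 µg/mL with 3 libraries each. Their 100 µg/mL groups entered the shared model and the ranges over libraries, and no dose comparison. Soyo-san was left out of the model and entered only ranges over libraries. Replicate 2 carried batch E in the library titles and replicate 3 batch D, so replicate pair and batch cannot be told apart. Whether replicates came from separate cultures is not stated, so p-values reflect differences among libraries that may be technical.

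Cells make cholesterol and unsaturated fatty acids with enzymes whose genes are switched on by SREBP, a pair of membrane-bound transcription factors that are cut free when sterols are scarce and held back by INSIG proteins when sterols are plentiful. The aryl hydrocarbon receptor (AHR) is a ligand-activated transcription factor that binds planar aromatic compounds, many of them from plants, and switches on cytochrome P450 genes. NRF2 and ATF4 drive gene programmes against electrophiles and against amino acid shortage or endoplasmic reticulum stress.

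The 4 libraries held between 25285603 and 38008463 expected counts. Keratin genes marked them as epithelial: KRT8 was at 3473 and 2706 CPM (read counts scaled to a common library total) in replicates 2 and 3 at 500 µg/mL, against 3487 and 3274 CPM at 20 µg/mL. Other epithelial markers were low. EPCAM was at 6.21 and 5.56 CPM, against 4.94 and 5.57 CPM, CLDN7 at or below 1.18 CPM and ESRP1 at or below 0.421 CPM. Of the alveolar markers, NKX2-1, SFTPC and SFTPA1 were at or below 0.0395 CPM and SFTPB at or below 0.218 CPM, while ABCA3 was at 30.5 and 25.6 CPM at 500 µg/mL, against 26.0 and 23.3 CPM at 20 µg/mL. The alveolar and airway list summed to 121 and 98.9 CPM, against 98.6 and 96.3 CPM. PTPRC and VWF, of immune and endothelial cells, had 0 counts in all 4 libraries. The 10 immune markers together summed to 23.8 and 14.7 CPM at 500 µg/mL, against 12.2 and 11.8 CPM at 20 µg/mL, mostly from CD68 at 16.7 and 10.1 CPM, against 8.27 and 7.70 CPM. Their part in the results was not tested. Replicate 2 at 500 µg/mL stood apart. It held the most counts of the series, and 9.89% of them were mitochondrially encoded messenger RNA, against 6.73% in replicate 3 at 500 µg/mL, 6.65% and 6.85% at 20 µg/mL, and 6.22% to 8.91% over the 26 other treated libraries; the 3 vehicle libraries held 10.5% to 10.9%. Between both libraries at 500 µg/mL the chi-square divided by its degrees of freedom was 38.2, and it lay between 2.00 and 17.6 in the 23 replicate pairs of the other groups. Results are therefore also given within replicate 2 and within replicate 3.

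Of 17459 genes tested, 278 were called at an adjusted p below 0.05 (1.59%), 171 higher and 107 lower at 500 µg/mL (0.979% and 0.613%). All tests are edgeR's quasi-likelihood test with Benjamini-Hochberg adjustment over all genes tested, and fold changes are log2 values with their standard error (SE). With replicate number as a block 436 genes were called (2.5%), 255 higher and 181 lower (1.46% and 1.04%), and all 278 were kept. Without replicate 2 at 500 µg/mL 44 genes were called, and without replicate 3 at 500 µg/mL 3987. Without replicate 2 or replicate 3 at 20 µg/mL the counts were 61 and 40. SCD, HMGCS1, INSIG1, STARD4, CYP1A1, CYP1B1, TIPARP, HMOX1 and NR4A3 were called in each of these leave-one-out fits. With the spread taken from only the 4 libraries 0 genes were called by edgeR, with 857 at an unadjusted p below 0.05, and with only the 6 Okbyeongpung-san libraries 1 gene, SCD, was called. Of the 278, 13 changed by at least 2-fold. Among the genes that fell were those of cholesterol and fatty acid synthesis, the fibrinogen chains and the nuclear receptors NR4A1 and NR4A3. Among the genes that rose were AHR targets, HMOX1 and a few stress response and lysosomal genes. With a correction for transcript GC content and length, added after the data were seen, 226 genes were called, 93 higher and 133 lower, and 140 of the 278 were shared. The share of higher genes among those called was 61.5% without and 41.2% with that correction.

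SCD, the stearoyl-CoA desaturase that puts the double bond into monounsaturated fatty acids (ENSG00000099194, GRCh38 chromosome 10, 100347124 to 100364834, plus strand), had the smallest adjusted p. It was at 635 and 662 CPM in replicates 2 and 3 at 500 µg/mL, against 1203 and 1230 CPM at 20 µg/mL. Both libraries at 500 µg/mL lay far below both at 20 µg/mL, and the replicates of a dose lay close together. SCD fell by 0.91 ± 0.06 (SE; adjusted p = 6.83e-09), by 0.92 within replicate 2 and by 0.89 within replicate 3.

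HMGCS1, which makes the precursor of mevalonate (ENSG00000112972, chromosome 5, 43289395 to 43313512, minus strand), was at 99.0 and 124 CPM at 500 µg/mL, against 186 and 190.0 CPM at 20 µg/mL. The groups did not overlap, and HMGCS1 fell by 0.76 ± 0.08 (adjusted p = 4.66e-06). INSIG1, the sterol-regulated protein that retains SREBP in the endoplasmic reticulum (ENSG00000186480, chromosome 7, 155297776 to 155310235, plus strand), was at 22.3 CPM in both libraries at 500 µg/mL, against 37.3 and 37.9 CPM at 20 µg/mL. STARD4, a cytosolic sterol carrier (ENSG00000164211, chromosome 5, 111496033 to 111512590, minus strand), was at 15.2 and 19.7 CPM at 500 µg/mL, against 28.9 and 27.9 CPM at 20 µg/mL. Both genes were lower in each library at 500 µg/mL, and they fell by 0.75 ± 0.08 and by 0.71 ± 0.09 (adjusted p = 9.12e-06 and 4.64e-05). SCD, HMGCS1, INSIG1 and STARD4 were each called within replicate 2 alone and within replicate 3 alone.

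The promoters of these 4 genes are shown because the genes moved together, and because SREBP is known to work with NF-Y, a factor that binds CCAAT. Each line gives RefSeq sequence of build GRCh38.p14 upstream of the RefSeq gene start on the gene's own strand, with CCAAT, or ATTGG where the box lies on the opposite strand, in capitals.
SCD, chr10:100346989-100347066, plus strand: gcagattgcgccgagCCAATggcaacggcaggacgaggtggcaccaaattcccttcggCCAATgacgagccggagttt
HMGCS1, chr5:43313493-43313582, minus strand: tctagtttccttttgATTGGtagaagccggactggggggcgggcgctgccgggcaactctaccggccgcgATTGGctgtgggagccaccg
INSIG1, chr7:155297693-155297727, plus strand: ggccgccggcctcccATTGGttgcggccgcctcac
STARD4, chr5:111512646-111512711, minus strand: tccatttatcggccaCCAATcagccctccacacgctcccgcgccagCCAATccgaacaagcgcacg

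The box occurred in both orientations and was present as a pair in SCD, HMGCS1 and STARD4. Over the 250 bases before the start, CCAAT on either strand was found for 16 of 18 tested cholesterol genes with a RefSeq promoter and for 8 of 13 fatty acid synthesis genes. Of the members called lower, 5 of 6 cholesterol and 4 of 6 fatty acid synthesis genes with a promoter carried it. CCAAT thus did not set the members that fell apart from the rest of their lists. It was found for 4806 of 11865 tested genes with a promoter (40.5%), and in 32% of all 35116 RefSeq promoters. TCACNCCAC, a sterol regulatory element sequence, was searched for on both strands in the same window. It was found for 1 of 18 tested cholesterol genes with a promoter, SREBF2, for 0 of 13 fatty acid synthesis genes and for 132 of 11865 tested genes (1.11%). It was in 0.883% of all promoters. No match says only that these letters are not in this window.

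Of 25 cholesterol genes tested, 11 fell, against 0.613% of all genes tested, 0 rose, and 24 had a fold change below 0. Their median was −0.33, against −0.0039 over all genes tested. The medians within replicate 2 and within replicate 3 were −0.29 and −0.29. Below 0 were 22 of the 25 within replicate 2 and all 25 within replicate 3. Within replicate 3, 27 of 30 ribosomal protein genes were below 0 as well. In 22 of the 25 both libraries at 500 µg/mL lay below both at 20 µg/mL, against 20% of all genes tested. IDI1, an isomerase of the mevalonate pathway, was at 43.0 and 47.4 CPM at 500 µg/mL, against 68.1 and 67.0 CPM at 20 µg/mL, and fell by 0.58 ± 0.07 (adjusted p = 8.74e-05). FDFT1, LSS, CYP51A1 and ACAT2, further enzymes of the pathway, fell by 0.33 ± 0.06, 0.45 ± 0.08, 0.41 ± 0.10 and 0.45 ± 0.09. SQLE, squalene epoxidase, gave −0.25 ± 0.07 and did not pass the test (adjusted p = 0.0686). SREBF2, which encodes the SREBP of the cholesterol genes, gave −0.08 ± 0.07 with libraries that overlapped (adjusted p = 0.576). With the GC and length correction 17 of the 25 were lower and the median was −0.34. SREBF2 was then called, at −0.19 ± 0.05 (adjusted p = 0.0455).

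Of 14 fatty acid synthesis genes tested, 6 fell, against 0.613% of all genes tested, and 0 rose, with a median of −0.25. FADS2, a desaturase of polyunsaturated fatty acids, was at 397 and 327 CPM at 500 µg/mL, against 494 and 482 CPM at 20 µg/mL, and fell by 0.43 ± 0.07 (adjusted p = 0.00141). FADS1, the second desaturase of that pathway, fell by 0.34 ± 0.05, and ACACA, acetyl-CoA carboxylase, by 0.37 ± 0.07, a call lost without replicate 2 at 500 µg/mL or without replicate 3 at 20 µg/mL. ACSL3, an acyl-CoA ligase, fell by 0.32 ± 0.06, and ELOVL5, a fatty acid elongase, by 0.28 ± 0.06. FASN, fatty acid synthase, was at 461 and 371 CPM at 500 µg/mL, against 530 and 481 CPM at 20 µg/mL, and did not pass the test (−0.28 ± 0.12; adjusted p = 0.242). SREBF1, which encodes the SREBP of these genes, gave −0.15 ± 0.11 with overlapping libraries (adjusted p = 0.477). With the GC and length correction 8 of the 14 were lower. FASN and SREBF1 were then called, at −0.49 ± 0.08 and −0.37 ± 0.07 (adjusted p = 0.00181 and 0.00843), and ACSL3 was not, at −0.18 (adjusted p = 0.0548). LPIN1, a phosphatidate phosphatase of triglyceride synthesis that was on no list, was at 40.9 and 41.5 CPM at 500 µg/mL, against 60.3 and 58.6 CPM at 20 µg/mL. Its groups lay clearly apart, and it fell by 0.53 ± 0.06 (adjusted p = 8.78e-06). Of 12 genes of fatty acid oxidation and lipid droplets 0 were called by edgeR, with 7 at an unadjusted p below 0.05, 4 called by DESeq2 and a median of 0.13. PLIN2, a lipid droplet coat protein, was at 20.8 and 19.8 CPM, against 15.6 and 17.5 CPM (0.30 ± 0.09; adjusted p = 0.0875).

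**Figure D1:**
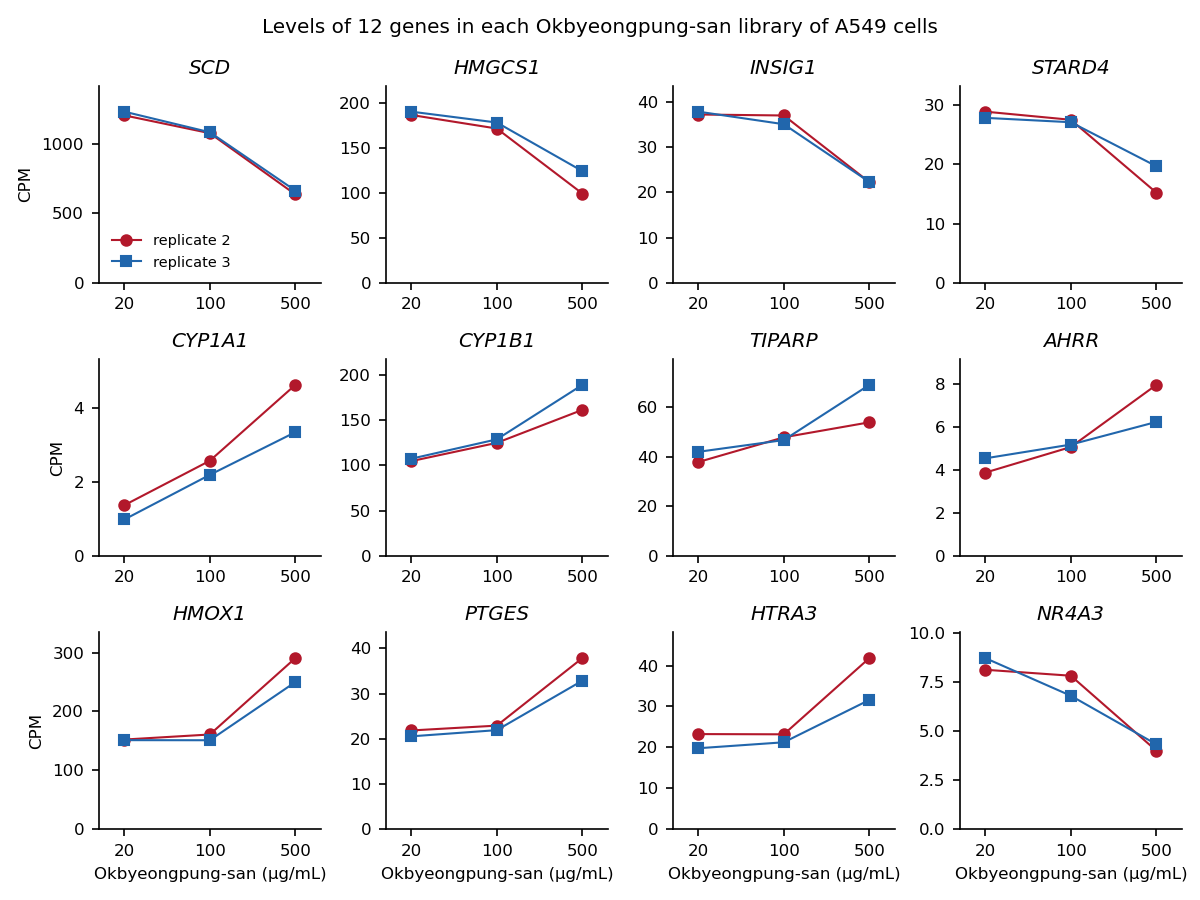
Levels of 12 genes in CPM at 20, 100 and 500 µg/mL of Okbyeongpung-san, with replicate 2 as circles and replicate 3 as squares, and each axis starting at 0. SCD, HMGCS1, INSIG1, STARD4 and NR4A3 were lowest at 500 µg/mL in both replicates, and the other 7 genes were highest there.

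AHR targets rose in 4 of 8 genes tested, against 0.979% of all genes tested, and 0 fell, with a median of 0.46. CYP1A1, the P450 enzyme most used as a readout of AHR (ENSG00000140465, chromosome 15, 74719542 to 74725610, minus strand), was at 4.62 and 3.34 CPM at 500 µg/mL, against 1.37 and 0.982 CPM at 20 µg/mL. Both libraries at 500 µg/mL were above both at 20 µg/mL, and CYP1A1 rose by 1.77 ± 0.21 (adjusted p = 2.93e-05). CYP1B1, a related P450 enzyme (ENSG00000138061, chromosome 2, 38066973 to 38109902, minus strand), was at 161 and 189 CPM, against 105 and 107 CPM, and rose by 0.72 ± 0.08 (adjusted p = 5.79e-06). TIPARP, an ADP-ribosyltransferase that limits AHR activity, was at 53.9 and 69.0 CPM, against 37.9 and 42.0 CPM, and rose by 0.62 ± 0.09 (adjusted p = 0.000547). For CYP1B1 and TIPARP replicate 3 was the higher library at 500 µg/mL, the other way round from CYP1A1. AHRR, the AHR repressor, was at 7.95 and 6.22 CPM, against 3.87 and 4.53 CPM, and rose by 0.76 ± 0.15 (adjusted p = 0.00692). CYP1A1, CYP1B1 and TIPARP were called within each replicate, and AHRR within replicate 2 alone. The call of AHRR was lost without replicate 2 at either dose. NQO1, which AHR and NRF2 both induce, was at 1678 and 1757 CPM, against 1665 and 1687 CPM (0.04 ± 0.06; adjusted p = 0.799). ALDH3A1, an aldehyde dehydrogenase, gave 0.30 ± 0.15 (adjusted p = 0.29).

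The AHR complex binds DNA at the core GCGTG, and matches near the start of the called genes are shown for reference, with the core in capitals (CACGC where it lies on the opposite strand). They are RefSeq sequence of GRCh38.p14 on the gene's own strand.
CYP1A1, chr15:74725569-74725597, minus strand: ccagggaaggagGCGTGgccacacgtaca
AHRR, chr5:322556-322584, plus strand: gcagaagggtggGCGTGtgcgcgcgttct
TIPARP, chr3:156674370-156674398, plus strand: cgcgagaaaggaCACGCcccctcgcggga

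In the 250 bases before the start, GCGTG on either strand was present for 3 of 3 called AHR targets with a RefSeq promoter, and for 6159 of 11865 tested genes (51.9%), so the short core is common.

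HMOX1, haem oxygenase 1, which degrades haem and is a known NRF2 target (ENSG00000100292, chromosome 22, 35380361 to 35394214, plus strand), was at 291 and 249.9 CPM at 500 µg/mL, against 152 and 151 CPM at 20 µg/mL. Both libraries at 500 µg/mL were well above, and HMOX1 rose by 0.83 ± 0.07 (adjusted p = 2.93e-07), by 0.93 within replicate 2 and by 0.73 within replicate 3. It was the only 1 of 23 NRF2 targets called by edgeR, against 0.979% of all genes tested that rose. The list's median was 0.04, and 0 fell. At an unadjusted p below 0.05 were 9 of the 23, and 2 were called by DESeq2. With the GC and length correction 1 was called higher and 1 lower. GCLM and TXNRD1, which belong to glutathione and thioredoxin metabolism, gave 0.10 and −0.15 and were not called.

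Integrated stress response genes rose in 4 of 25, against 0.979% of all genes tested, and 0 fell, with a median of 0.13. STC2, a secreted glycoprotein, was at 25.6 and 24.4 CPM at 500 µg/mL, against 18.6 and 17.7 CPM at 20 µg/mL, and rose by 0.46 ± 0.08 (adjusted p = 0.00341). PHGDH, the first enzyme of serine synthesis, rose by 0.42 ± 0.09, CBS, an enzyme of transsulfuration, by 0.35 ± 0.07, and ASNS, asparagine synthetase, by 0.29 ± 0.07. DDIT3 (CHOP) and TRIB3, pro-apoptotic members of the response, gave 0.07 ± 0.14 and 0.13 ± 0.10 with overlapping libraries. ATF3, a stress-induced transcription factor, gave −0.21 ± 0.14. GDF15, a stress-induced hormone, was at 26.7 and 22.0 CPM, against 19.5 and 17.3 CPM (0.41 ± 0.12; adjusted p = 0.0971). None of the 4 called genes was called within replicate 3 alone, and all 4 calls were lost without replicate 2 at 500 µg/mL or without replicate 3 at 20 µg/mL. Those of PHGDH, CBS and ASNS were lost without replicate 2 at 20 µg/mL too, and that of CBS with the GC and length correction.

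Lysosome and autophagy genes rose in 4 of 22, against 0.979% of all genes tested, and 0 fell, with a median of 0.14. SQSTM1, the autophagy receptor p62, was at 1172 and 1015 CPM at 500 µg/mL, against 804 and 806 CPM at 20 µg/mL, and rose by 0.44 ± 0.07 (adjusted p = 0.00111). CTSL, the protease cathepsin L, was at 319 and 324 CPM, against 247 and 236 CPM, and rose by 0.41 ± 0.07 (adjusted p = 0.00374). CTSD, cathepsin D, and GAA, acid alpha-glucosidase, rose by 0.49 ± 0.10 and 0.43 ± 0.11 with replicate 2 well above replicate 3. CTSD was at 326 and 241 CPM, against 206 and 198 CPM. Without replicate 2 at 500 µg/mL the calls of SQSTM1, CTSD and GAA were lost, and without replicate 3 at 20 µg/mL those of CTSL, CTSD and GAA. Without replicate 2 at 20 µg/mL CTSD and GAA were lost. With the GC and length correction GAA was not called, and CTSD rose by 0.26.

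The fibrinogen chains FGA, FGB and FGG, clotting proteins that A549 cells secrete, were 3 of 6 tested acute phase genes and fell together. Over all genes tested 0.613% fell. Falls in this list were not particular to Okbyeongpung-san, whose median was −0.23. Of the 6 genes 3 fell and 1 rose with Soshiho-tang (median −0.65), against 10.2% and 10.3% of all genes tested. With Yijin-tang 3 of the 6 fell (median −0.46), against 0.418% of all genes tested. FGA was at 167 and 166 CPM at 500 µg/mL, against 215 and 229 CPM at 20 µg/mL, and fell by 0.42 ± 0.06 (adjusted p = 0.00012). FGB and FGG fell by 0.39 ± 0.09 and 0.34 ± 0.06, and both calls were lost with the GC and length correction, without replicate 2 at 500 µg/mL and without replicate 3 at 20 µg/mL. NR4A3, an orphan nuclear receptor of the immediate early class, was at 4.00 and 4.32 CPM, against 8.13 and 8.72 CPM, and fell by 1.02 ± 0.13 (adjusted p = 4.64e-05). NR4A1, its relative, fell by 0.40 ± 0.09, a call lost without replicate 3 at 500 µg/mL or without either library at 20 µg/mL. With Yijin-tang the change of NR4A1 was larger, at −1.13. FOSL1 and JUN, subunits of the AP-1 factor, rose by 0.83 ± 0.13 and 0.40 ± 0.08, so 2 of 20 immediate early genes rose and 2 fell. The shares over all genes tested were 0.979% and 0.613%. FOSL1 was at 37.3 and 24.7 CPM, against 17.8 and 17.3 CPM, with replicate 2 the higher, and its call was lost without that library. The call of JUN was lost without either library at 20 µg/mL and with the GC and length correction.

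Cell division genes lay mostly below 0. Of 28 mitosis genes 1 fell, against 0.613% of all genes tested, and 0 rose, with a median of −0.16 and 25 below 0. In 22 of the 28 both libraries at 500 µg/mL lay below both at 20 µg/mL, against 20% of all genes tested. Below 0 were 24 of the 28 within replicate 2 and all 28 within replicate 3. Within replicate 3, 23 of 24 nuclear respiratory chain genes and 27 of 30 ribosomal protein genes were below 0 too. With replicate number as a block 5 mitosis genes were called lower, against 1.04% of all genes tested. With the GC and length correction 0 were called, with a median of −0.11. CCNA2, cyclin A2, fell by 0.21 ± 0.06 (adjusted p = 0.0482), a call lost with other size factors, without a filter on low counts, with the GC and length correction, and without replicate 2 at 500 µg/mL or either library at 20 µg/mL. MKI67, a marker of proliferating cells, was at 603 and 600.2 CPM at 500 µg/mL, against 645 and 660.3 CPM at 20 µg/mL (−0.12 ± 0.11; adjusted p = 0.611). Of 31 DNA replication genes 1 fell, against 0.613% of all genes tested. It was RRM2, a subunit of ribonucleotide reductase, which fell by 0.22 ± 0.05. That call was lost without a filter on low counts and without replicate 2 at 500 µg/mL or either library at 20 µg/mL. CDKN1A, the cell cycle inhibitor p21, was at 89.5 and 75.5 CPM, against 83.9 and 77.3 CPM (0.03 ± 0.09; adjusted p = 0.872). Of 21 p53 targets 0 were called by edgeR, with 4 at an unadjusted p below 0.05 and 2 called by DESeq2.

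Single members of other lists were called. APOE, a lipid carrier and target of the liver X receptor, rose by 0.73 ± 0.16, RELB, an NF-kappa-B subunit, by 0.45 ± 0.09, and ETV4, a factor downstream of MAP kinase, by 0.42 ± 0.08. SLC2A3, a glucose transporter, fell by 0.61 ± 0.09, HSPE1, a mitochondrial chaperonin, by 0.40 ± 0.09, and COL4A1, a basement membrane collagen, by 0.26 ± 0.06. MUC16, a membrane mucin, was at 1.34 and 1.51 CPM, against 2.93 and 3.02 CPM, and fell by 1.06 ± 0.27 (adjusted p = 0.0479). The calls of APOE, RELB and MUC16 were lost with the GC and length correction. Without replicate 2 at 500 µg/mL the calls of APOE, RELB, ETV4, HSPE1, COL4A1 and MUC16 were lost, and that of SLC2A3 was kept. Those of APOE, RELB, HSPE1, COL4A1 and MUC16 were lost without either library at 20 µg/mL, and that of ETV4 without replicate 3 at 20 µg/mL. COL4A1 was not called without a filter on low counts, and ETV4 rose by 0.24 with the GC and length correction.

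**Figure D2:**
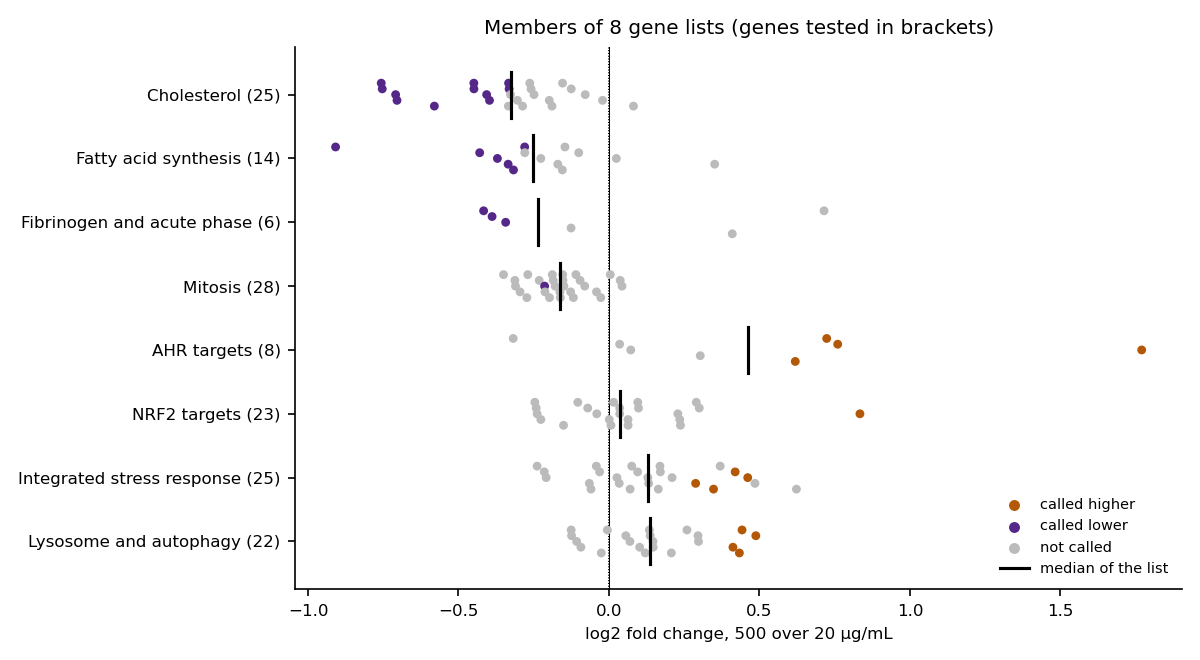
Log2 fold change, 500 over 20 µg/mL of Okbyeongpung-san, of each tested member of 8 gene lists, coloured by call, with the median of each list as a black bar and that of all genes tested as a dotted line. Cholesterol and fatty acid synthesis genes lay mostly below 0, and 4 AHR targets lay above 0.6.

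Further genes with large rises were on none of the lists. PCSK1N, an inhibitor of a prohormone convertase, was at 19.9 and 13.5 CPM at 500 µg/mL, against 8.48 and 8.01 CPM at 20 µg/mL, and rose by 1.03 ± 0.16 (adjusted p = 0.00114). RAP1GAP, which switches off the GTPase Rap1, was at 65.1 and 47.0 CPM, against 30.5 and 29.04 CPM, and rose by 0.92 ± 0.13 (adjusted p = 0.000215). In both genes replicate 2 was the higher library at 500 µg/mL, and all libraries at 500 µg/mL were above those at 20 µg/mL. RARRES1, a gene first found as induced by retinoids, was at 7.09 and 7.24 CPM, against 3.99 and 3.70 CPM, and rose by 0.90 ± 0.15 (adjusted p = 0.00144). HTRA3, a secreted serine protease, rose by 0.78 ± 0.10, and PTGES, a prostaglandin E synthase, by 0.74 ± 0.10, and both were called within each replicate. SERINC2 and FAM171A2, both membrane proteins, rose by 0.75 ± 0.13 and 0.75 ± 0.16, and FA2H, a fatty acid hydroxylase, by 0.74 ± 0.15. The calls of PCSK1N, SERINC2, FAM171A2 and FA2H were lost without replicate 2 at 500 µg/mL, and those of PCSK1N, RARRES1, SERINC2, FAM171A2 and FA2H without replicate 3 at 20 µg/mL. That of SERINC2 was lost without replicate 2 at 20 µg/mL too. With the GC and length correction PCSK1N rose by 0.62 ± 0.15 (adjusted p = 0.0384), and FAM171A2 was not called. AKR1B15, an aldo-keto reductase, rose by 1.09 ± 0.27 (adjusted p = 0.0382). It was at 16.1 and 5.87 CPM, against 5.24 and 5.25 CPM, so replicate 2 alone carried it. Its call was lost without that library or either library at 20 µg/mL, and its near-identical neighbour AKR1B10 makes the assignment of its reads uncertain.

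Among the lower genes, BAAT, which conjugates bile acids, was at 13.3 and 14.7 CPM at 500 µg/mL, against 21.3 and 23.2 CPM at 20 µg/mL, and fell by 0.67 ± 0.09 (adjusted p = 0.000104). It was called within each replicate. TM4SF4, a tetraspanin-like membrane protein, fell by 0.64 ± 0.11, HAS2, hyaluronan synthase 2, by 0.61 ± 0.12, and COL12A1, a fibril-associated collagen, by 0.58 ± 0.13. The last 3 calls were lost without replicate 2 at 500 µg/mL, and those of HAS2 and COL12A1 without either library at 20 µg/mL.

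The replicates differed in how many genes they called. Within replicate 2, 1748 genes were called (10%), 801 higher and 947 lower (4.59% and 5.42%). Within replicate 3, 21 genes were called (0.12%), 7 higher and 14 lower (0.0401% and 0.0802%). Each fit takes its spread from the other groups, so the lone libraries are assumed to vary like them. At 500 µg/mL that was not met. The chi-square over its degrees of freedom was 38.2 between the libraries of this dose, against 2.00 to 17.6 in other groups. The p-values within a replicate are therefore likely too small. The other comparisons that use these 500 µg/mL libraries also take a spread shared over all groups. Their p-values, those of the 278 calls and of the extract differences included, may be too small as well. With only the 6 Okbyeongpung-san libraries 1 gene was called, and with only the 4 libraries 0, but these fits also have fewer libraries. Of the 278 genes, 249 were called within replicate 2 and 20 within replicate 3, and all 20 were called in both. All 278 had the same sign in both replicates. They were called over these same libraries, which favours genes of equal sign, so this is not separate evidence of replication. The change was larger in replicate 2 for 231. The genes called higher had medians of 0.57 within replicate 2 and 0.33 within replicate 3, and the genes called lower −0.44 and −0.29. Over all 17459 genes tested the correlation across genes of the fold changes of both replicates was 0.027, and 10228 had the same sign. No further filter on level was used, so this correlation does not describe well counted genes alone. The 2 libraries at 500 µg/mL differed from each other in 1928 genes, and the 2 at 20 µg/mL in 0 by edgeR (365 at an unadjusted p below 0.05).

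The 21 genes of replicate 3 included cholesterol, fatty acid synthesis and AHR genes and none of the integrated stress response or lysosome lists. Lower were SCD, HMGCS1, INSIG1, STARD4, FADS2, LPIN1, NR4A3, BAAT, FGA, SPARC, OPN3, NPTX1, TFAP2C and SLC45A4. Higher were CYP1A1, CYP1B1, TIPARP, HMOX1, HTRA3, PTGES and CPT1A. CPT1A, which brings fatty acids into mitochondria, was at 108 and 128 CPM at 500 µg/mL, against 100.4 and 86.5 CPM at 20 µg/mL. It was the single gene of the 21 not called within replicate 2 (0.10 within replicate 2 and 0.57 within replicate 3). A direct test of replicate 2 minus replicate 3 called 0 genes by edgeR, with 1870 at an unadjusted p below 0.05 and a smallest adjusted p of 0.245. That test has 1 library per cell of the design, and a missed threshold does not show that the replicates responded alike.

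**Figure D3:**
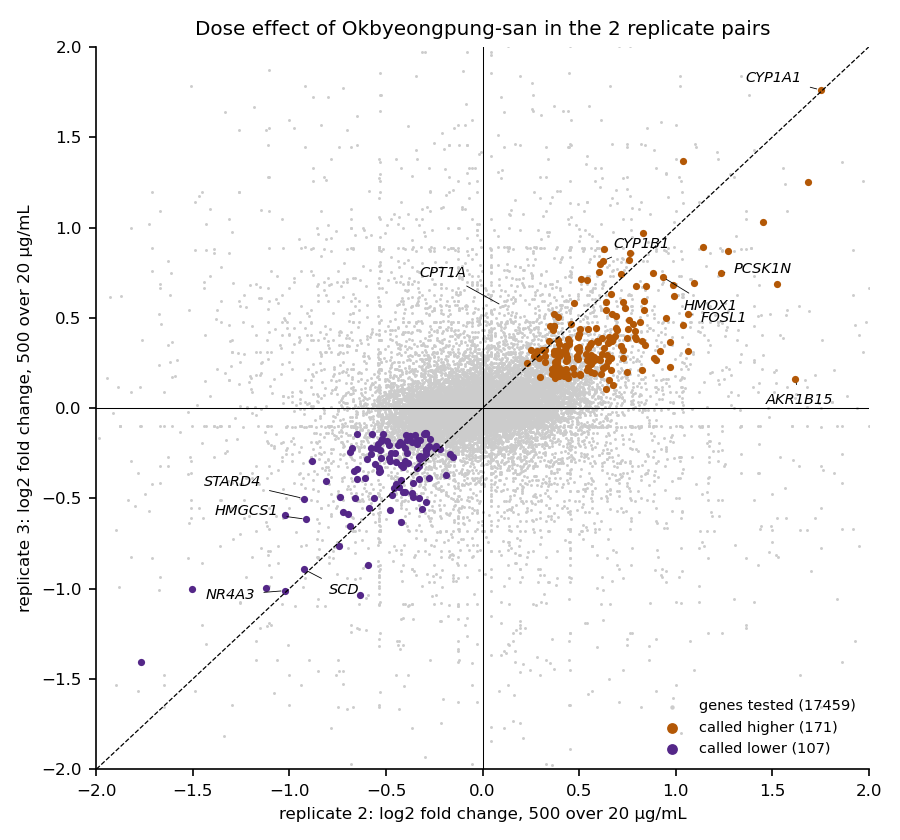
Log2 fold change, 500 over 20 µg/mL of Okbyeongpung-san, within replicate 2 on the x axis and within replicate 3 on the y axis, for all genes tested (grey) and the 278 called genes (orange higher, purple lower), with a dashed line of equal change; 317 genes lie beyond the axes. Called genes lay in the lower left and upper right corners, mostly nearer the x axis, while SCD, NR4A3 and CYP1A1 lay on the line.

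In replicate 2 the change followed the base composition of the transcripts. With the genes in 10 equal bins of transcript GC content, the median change within replicate 2 was −0.30 in the lowest bin and 0.35 in the highest. Within replicate 3 it was −0.03 and 0.07. Of the genes called higher, 66 were in the highest GC bin, against 0 of the genes called lower. The median GC content was 60.1% for genes called higher and 42.9% for genes called lower, against 48.6% over all genes tested. The same held between the libraries at 500 µg/mL: genes higher in replicate 2 had a median GC of 60.6% and genes lower in replicate 2 had 38.7%. With the GC and length correction replicate 2 called 174 genes and replicate 3 called 37. SCD, CYP1B1, HMOX1 and NR4A3 then fell by 0.89, rose by 0.78, rose by 0.72 and fell by 0.99. What produced the GC trend in replicate 2 was not tested. Mitochondrially encoded messenger RNAs differed between the replicates too, with a median of 0.65 within replicate 2 and −0.06 within replicate 3. The GC and length correction did not remove their rise. Their median over both replicates was 0.32 without it and 0.40 with it. Over both replicates 0 of 13 were called by edgeR, with 8 at an unadjusted p below 0.05 and 1 called by DESeq2.

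**Figure D4:**
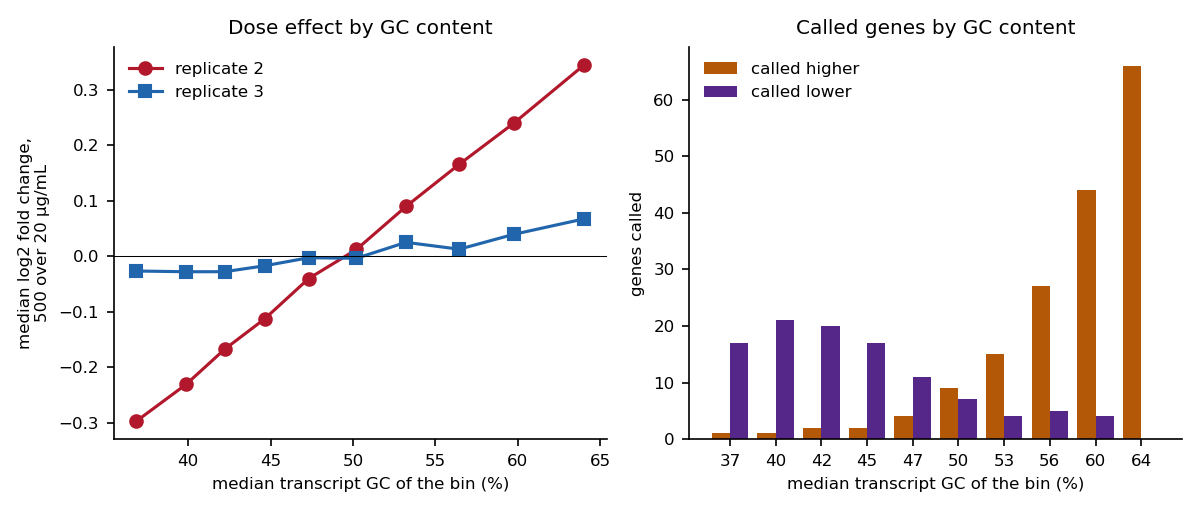
Left, median log2 fold change, 500 over 20 µg/mL, of the genes in 10 equal bins of transcript GC content, for replicate 2 (circles) and replicate 3 (squares); right, numbers of genes called higher and lower in each bin. The line of replicate 2 climbs from −0.30 to 0.35, and 66 of the genes called higher were in the bin of highest GC.

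The middle dose lay close to the low dose. Between 100 and 20 µg/mL 0 genes were called by edgeR, with 295 at an unadjusted p below 0.05, 1 gene called by DESeq2 and 46 without a filter on low counts. Between 500 and 100 µg/mL 119 genes were called (0.682%), 78 higher and 41 lower (0.447% and 0.235%), and 219 with replicate number as a block; this comparison shares the libraries at 500 µg/mL. Cholesterol genes had medians of −0.06 for 100 over 20 µg/mL and −0.25 for 500 over 100 µg/mL. SCD was at 1203 and 1230 CPM in replicates 2 and 3 at 20 µg/mL, at 1075 and 1081 CPM at 100 µg/mL and at 635 and 662 CPM at 500 µg/mL. CYP1A1 was at 1.37 and 0.982 CPM at 20 µg/mL, at 2.57 and 2.19 CPM at 100 µg/mL and at 4.62 and 3.34 CPM at 500 µg/mL, with no overlap between doses. HMOX1 was at 152 and 151 CPM at 20 µg/mL, at 161 and 151 CPM at 100 µg/mL and at 291 and 249.9 CPM at 500 µg/mL, so its rise lay between the upper doses.

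The same dose step was taken with Soshiho-tang and Yijin-tang, and no library is shared with them. Okbyeongpung-san called 278 genes (1.59%), Soshiho-tang 3588 (20.6%) and Yijin-tang 123 (0.705%), where the other extracts had 3 libraries per dose, all of batch E. With Soshiho-tang 1807 rose and 1781 fell (10.3% and 10.2%), and with Yijin-tang 50 rose and 73 fell (0.286% and 0.418%). The difference of the dose effect from that of Soshiho-tang was called for 1224 genes (7.01%), 652 higher and 572 lower with Okbyeongpung-san (3.73% and 3.28%). The difference from Yijin-tang was called for 28 genes (0.16%), 13 higher and 15 lower (0.0745% and 0.0859%), and for 45 with replicate number as a block. Without replicate 2, and without replicate 3, at 500 µg/mL of Okbyeongpung-san the difference from Soshiho-tang was called for 512 and 3586 genes and that from Yijin-tang for 15 and 2547. Without replicate 2, and without replicate 3, at 20 µg/mL they were called for 743 and 536 genes and for 19 and 10. Of the 278 genes, 155 were called with Soshiho-tang as well, 139 with the same sign, and 38 with Yijin-tang, 37 with the same sign.

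Lipid synthesis genes fell with Okbyeongpung-san and not with Yijin-tang, and the difference itself was called for several. SCD fell by 0.91 with Okbyeongpung-san and rose by 0.23 with Yijin-tang, a difference of −1.14 ± 0.08 (adjusted p = 1.18e-08). INSIG1, HMGCS1, STARD4 and LPIN1 followed, with differences of −0.91 ± 0.10, −0.87 ± 0.10, −0.87 ± 0.11 and −0.70 ± 0.07. With Yijin-tang 0 of 25 cholesterol genes were called by edgeR or by DESeq2, with 7 at an unadjusted p below 0.05 (median 0.08). The difference was called lower for 7 of 25 cholesterol and 3 of 14 fatty acid synthesis genes, against 0.0859% of all genes tested. With Soshiho-tang 12 of 25 cholesterol genes fell (median −0.15), against 10.2% of all genes tested. The difference from Soshiho-tang was called lower for 5 and higher for 1, against 3.28% and 3.73% of all genes tested. SCD fell by 0.21 with Soshiho-tang, a difference of −0.70 (adjusted p = 5.31e-06), and STARD4 gave 0.01, a difference of −0.72 (adjusted p = 0.000176).

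AHR targets separated the extracts in another way. CYP1A1 rose by 1.77 ± 0.21 with Okbyeongpung-san and by 1.88 with Yijin-tang, and the difference of −0.11 did not pass the test (adjusted p = 0.903). With Soshiho-tang CYP1A1 gave 0.09, and the difference was 1.68 (adjusted p = 0.000176). The difference from Soshiho-tang was called for 4 of 8 AHR targets, against 7.01% of all genes tested. That from Yijin-tang was called for 0 by edgeR and by DESeq2, with 2 at an unadjusted p below 0.05. A missed threshold does not show that both extracts act alike on these genes.

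Integrated stress response genes rose in 22 of 25 with Soshiho-tang (median 1.10), against 10.3% of all genes tested. STC2 rose by 0.46 with Okbyeongpung-san and by 2.66 with Soshiho-tang, a difference of −2.20 (adjusted p = 1.14e-12). NIBAN1, a stress-induced protein, gave a difference of −2.38, and DDIT3, TRIB3 and ATF3 gave −2.11, −1.92 and −1.65. The difference from Soshiho-tang was called lower for 19 of 25 genes of this list, against 3.28% of all genes tested. With Yijin-tang 8 of 25 rose (median 0.25), against 0.286% of all genes tested, and with Okbyeongpung-san 4 of 25 (median 0.13). The difference from Yijin-tang was called for 0 of the 25 by edgeR and 1 by DESeq2, with 9 at an unadjusted p below 0.05. Mitosis genes fell in 27 of 28 with Soshiho-tang, against 10.2% of all genes tested. The difference from Soshiho-tang was called higher with Okbyeongpung-san for 12, against 3.73% of all genes tested.

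**Figure D5:**
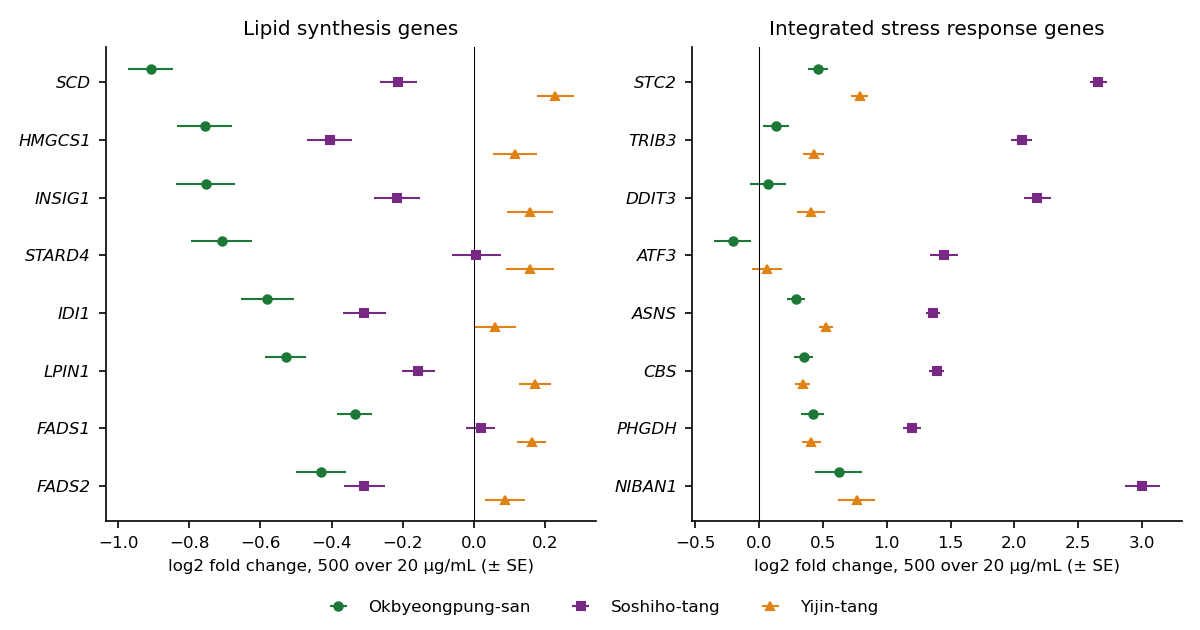
Log2 fold change, 500 over 20 µg/mL, with its standard error, for Okbyeongpung-san (circles), Soshiho-tang (squares) and Yijin-tang (triangles), in 8 lipid synthesis genes on the left and 8 integrated stress response genes on the right. Okbyeongpung-san was lowest of the 3 for each lipid gene shown, and Soshiho-tang was highest for each stress gene shown.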

How the data were processed

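RNA of A549 cells was sequenced, and the authors deposited a table of expected counts for each gene. The submitters' processing notes name RSEM 1.3.3 and STAR 2.7.3a, Trim Galore 0.6.5 and FastQC 0.11.9; the builds given are GRCh38 and hg38. The annotation release and strand setting are not given in the sources used here, so overlapping genes and near-identical paralogs have uncertain counts. The deposited table held 60675 Ensembl identifiers, and its 30 empty columns were not used. Values were rounded; between 9.09% and 11.6% per library were not whole. A gene name table matched 56558 of them, and 41209 had a symbol; GENCODE release 29 gave positions on GRCh38.

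The 30 libraries held 19833144 to 38008463 counts. One model covered the 27 libraries of the 10 replicated groups, using edgeR 4.0.16 under R 4.3.3 (TMM, filterByExpr, glmQLFit, glmQLFTest), which left 17459 genes; the biological coefficient of variation was 6.89%. Soyo-san had 1 library per dose and was left out. Calls are genes whose adjusted p (Benjamini-Hochberg) was below 0.05. The SE equals the size of the log2 fold change over the root of F. CPM are scaled to TMM-adjusted totals, except the marker levels, which are scaled to plain totals. For the comparison within a replicate, the 4 libraries each formed a group of their own. DESeq2 1.42.0 was an alternative.

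The replicate numbers and batch letters come from the library titles. Among the Okbyeongpung-san libraries a number marks a shared batch, while every library of the other fitted groups is batch E, so the block is batch D against batch E. Deviations of same-numbered libraries from their dose means correlated at 0.168 between 500 and 20 µg/mL, 0.0768 between 500 and 100 µg/mL and 0.0581 between 100 and 20 µg/mL.

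The members, the 38 gene lists and the alternatives were chosen with earlier results of these data known. Named genes were up to 12 in each direction with the largest change among genes that were called, carried a symbol, averaged 2 or more in log2 CPM and had no overlap of the doses, up to 4 called members of each list, 12 fixed genes, and up to 5 in each direction for each difference. Further genes of the cholesterol, fatty acid and AHR lists, NRF2 targets and genes called within replicate 3 were named after their values were seen. Lists are described by counts and medians and were not tested. The fitting script was tested on simulated data. Per the labels vehicle was 0.1% DMSO, while the series text gives another percentage. Promoter sequences are from RefSeq, GRCh38.p14. Some called members of the cholesterol list are counted but not reported here by name.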

Additional observations from a re-analysis of the deposited data

Results flagged for a closer look

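The dose effect of Okbyeongpung-san differed from that of Soshiho-tang in 1224 genes by edgeR's quasi-likelihood test of the difference, with Benjamini-Hochberg adjustment. The differences, given as Okbyeongpung-san minus Soshiho-tang on the log2 scale, were 1.40 for PCSK1N, 1.31 for TPPP3, 1.26 for BCAS1, 1.26 for RASL11A and 1.24 for SFRP4. They were −2.38 for NIBAN1, −2.20 for STC2, −2.11 for DDIT3, −1.92 for TRIB3 and −1.65 for ATF3. TPPP3, a microtubule-binding protein, was at 9.93 and 7.24 CPM at 500 µg/mL of Okbyeongpung-san, against 6.64 and 7.44 CPM at 20 µg/mL, with overlapping libraries. It fell by 1.01 with Soshiho-tang. BCAS1 and RASL11A were not called with Okbyeongpung-san itself and fell by 1.03 and 0.66 with Soshiho-tang, and SFRP4, a secreted Wnt antagonist, rose by 0.52 with Okbyeongpung-san, a call lost without replicate 2 at 500 µg/mL or either library at 20 µg/mL, and fell by 0.72 with Soshiho-tang.

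The dose effect differed from that of Yijin-tang in 28 genes. The differences, given as Okbyeongpung-san minus Yijin-tang, were 1.26 for PCSK1N, 1.05 for RARRES1, 0.94 for HTRA3, 0.75 for SMOC1 and 0.75 for ADRA1D. They were −1.14 for SCD, −0.91 for INSIG1, −0.87 for HMGCS1, −0.87 for STARD4 and −0.70 for LPIN1. SMOC1, a secreted matrix protein, and ADRA1D, an adrenergic receptor, were not called with Okbyeongpung-san (0.24 ± 0.09 and 0.23 ± 0.11) and fell by 0.50 and 0.52 with Yijin-tang. No group of these comparisons has 4 or more libraries, so no single library could be tested as an outlier of its group.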

How the results depend on the processing

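The count of genes called between 500 and 20 µg/mL was 278 and ranged widely: 280 with other size factors, 889 without a filter on low counts, 514 with DESeq2, 1 with only the 6 Okbyeongpung-san libraries and 0 with only the 4 libraries (857 at an unadjusted p below 0.05). Leaving out 1 library gave 40 to 3987 genes, 44 without replicate 2 at 500 µg/mL and 3987 without replicate 3 at 500 µg/mL; without replicate 2 of both doses 26 were called, and without replicate 3 of both doses 1704. The replicate block gave 436, 3 with only the 6 libraries, and 219 with the GC and length correction; under the block 500 over 100 µg/mL gave 219 and the difference from Yijin-tang 45, and the block changed no call of the named genes. For 100 over 20 µg/mL 46 genes were called without the filter and 1 with DESeq2. For 500 over 100 µg/mL the counts were 729 without the filter, 323 with DESeq2 and 0 with only the 6 libraries. The difference from Soshiho-tang ranged from 512 to 3586 when 1 library was left out. The difference from Yijin-tang was called for 435 genes without the filter, 100 with DESeq2 and 54 with the GC and length correction, and for 10 to 2547 when 1 library was left out. The difference between replicates was called for 170 genes without the filter. Of 53 named genes called, none changed sign under any alternative run; 10 lost their call with the GC and length correction (FAM171A2, CBS, CCNA2, APOE, RELB, JUN, GAA, MUC16, FGB and FGG), 29 without replicate 2 at 500 µg/mL and 36 without replicate 2 of both doses. Part of the named genes were chosen for doses that did not overlap, and all 278 called genes had the same sign in both replicates. Leaving out a library could therefore hardly reverse the sign of a called gene. Named genes without a call changed sign. CDKN1A ranged from −0.0933 to 0.165 when 1 library was left out, and gave −0.0385 without replicate 2 of both doses, −0.0953 with the GC and length correction and −0.0955 with that and the block. TRIB3 ranged from −0.0263 to 0.286, and gave −0.0466 with the correction and −0.0468 with that and the block, where ADRA1D gave −0.0274 and −0.0200. Without replicate 2 of both doses TPPP3 gave −0.0422 and DDIT3 −0.0242. The GC and length correction was chosen after the data were seen. The cause of these shifts was not tested. With 2 libraries per dose the calls rest on the spread shared over all groups, while the libraries at 500 µg/mL varied more than those of other groups.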

Other observations

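STRA6, CYP26B1 and DHRS3 were picked after their values were seen, from the genes whose dose effect differed from that of Yijin-tang; other retinoid genes were not counted. STRA6, the cell surface receptor for retinol-binding protein, was at 75.0 and 63.1 CPM at 500 µg/mL, against 46.4 and 44.4 CPM at 20 µg/mL, and rose by 0.61 ± 0.10 (edgeR adjusted p = 0.000899). CYP26B1, which degrades retinoic acid, was at 51.2 and 45.1 CPM, against 35.0 and 33.3 CPM, and rose by 0.50 ± 0.08. DHRS3, a retinal reductase, was at 99.9 and 77.6 CPM, against 63.5 and 59.0 CPM, and rose by 0.54 ± 0.09. In all 3 genes both libraries at 500 µg/mL were above both at 20 µg/mL, and none was called within replicate 3 alone. The differences from Yijin-tang were 0.61, 0.67 and 0.53 (adjusted p = 0.032, 0.000972 and 0.0477). LYZ, a lysozyme of immune and airway cells, was at 1.24 CPM in replicate 2 at 500 µg/mL, against 0.0791 and 0.0763 CPM at 20 µg/mL, and at 0 in replicate 3 at 500 µg/mL. It was chosen after its value was seen, and in the same replicate CD68 was at 16.7 CPM at 500 µg/mL, against 8.27 CPM at 20 µg/mL, CD14 at 4.26 CPM, against 2.81 CPM, and PTPRC at 0 in both.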
